A study of Mus musculus with 8 samples.

Results

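Intronic initiation sites of short genes were taken from SNS-seq of CH12, a line of mouse lymphoma B cells. An initiation site (IS) is a stretch of DNA where short nascent strands pile up, and it belonged here if it lay inside a protein-coding gene spanning less than 50 kb, inside no longer protein-coding gene, touched no annotated exon, and was more than 1 kb from every protein-coding transcription start site (TSS) and gene 3' end. Genes were those of GENCODE M1 on mm9, and chromosomes 10, 15 and 16 and the sex chromosomes were left out. Within the chromosomes kept, no read density entered this choice. It kept 1902 of the 39116 ISs of the table that sets Rif1KO against WT, and 4964 of the 129937 ISs of the table that sets Rif1KO_shMcm6 against Rif1KO_shLacZ.

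All 8 libraries came from CH12 cells kept in IL4, CD40 and TGF beta stimulation, with 2 libraries in each of 4 groups. WT cells carry Rif1, and Rif1KO cells have lost it. Both groups of the other table lack Rif1 as well, so that Rif1KO_shLacZ, which expresses a hairpin against the bacterial LacZ gene, is the control for Rif1KO_shMcm6, whose hairpin targets Mcm6. The number of knockout clones behind these libraries is not given in the sources used here, and the replicates came from separately thawed vials of cells. The deposited densities are log2 RPM, reads scaled to a total of 1000000 within the ISs of a table, 1 value per condition with both replicates pooled, so no spread between replicates could be measured. Whole reads were recovered for every value, 3350255 in WT, 3724571 in Rif1KO, 21071351 in Rif1KO_shLacZ and 23602750 in Rif1KO_shMcm6. A difference at 1 IS is therefore given with its counting standard error (SE), which leaves out the variation between cultures, and no p-value was computed. Intervals on medians are 95% order-statistic intervals over ISs and those on shares are 95% Wilson intervals. ISs of one gene share libraries and neighbourhood, so both describe these pooled libraries rather than the conditions.

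Replication starts where the origin recognition complex has loaded the MCM2-7 helicase, of which Mcm6 is a subunit, and where that helicase is later activated. Many more origins are loaded than are used in a given cell. RIF1 brings protein phosphatase 1 to chromatin, can oppose activation of the helicase and acts on the time at which domains replicate. Short genes tend to lie close to other genes in GC-rich, early replicating chromatin, whereas very long genes usually sit in gene-poor, later replicating chromatin. Transcribed gene bodies can also displace loaded helicases, so an intron is a place where an origin meets the transcription machinery.

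The densest short-gene ISs lay in tandem repeats. So did the largest gain after Mcm6 knockdown among ISs whose density reached the table median. Of the sequences below, 3 show this beside a site with no such repeat. Each is 300 bases of the plus strand of mm9 centred on the IS. Capitals mark a G-quadruplex (G4) motif, written as 4 or more runs of at least 3 G separated by 1 to 7 bases, searched on both strands with overlapping matches merged from left to right. The first comes from intron 13 of Unc45b, a myosin chaperone gene, and was the densest short-gene IS in WT (chr11:82744431-82744730). The second is intron 8 of Ctcfl, which encodes a testis paralogue of CTCF, the densest short-gene IS in Rif1KO_shLacZ (chr2:172928849-172929148). The third is intron 1 of Cdk18, a cyclin-dependent kinase gene, whose IS gained most in Rif1KO_shMcm6 among ISs whose density, averaged over both conditions, reached the table median (chr1:134027614-134027913). The fourth is intron 13 of Rpn2, a subunit of the oligosaccharyltransferase, 1 of the ISs that lost most there (chr2:157142396-157142695).
Unc45b: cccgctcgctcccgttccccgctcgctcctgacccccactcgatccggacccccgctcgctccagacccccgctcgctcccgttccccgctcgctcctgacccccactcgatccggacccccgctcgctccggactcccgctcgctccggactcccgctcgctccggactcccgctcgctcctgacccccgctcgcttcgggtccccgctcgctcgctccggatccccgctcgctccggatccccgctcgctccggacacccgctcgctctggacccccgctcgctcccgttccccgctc
Ctcfl: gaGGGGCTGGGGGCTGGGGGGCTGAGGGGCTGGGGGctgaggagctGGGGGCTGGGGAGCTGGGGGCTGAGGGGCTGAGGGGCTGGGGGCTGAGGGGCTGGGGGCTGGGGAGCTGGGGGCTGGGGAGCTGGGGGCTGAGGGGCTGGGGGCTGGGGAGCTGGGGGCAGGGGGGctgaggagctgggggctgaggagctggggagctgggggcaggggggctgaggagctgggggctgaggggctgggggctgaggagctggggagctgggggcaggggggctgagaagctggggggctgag
Cdk18: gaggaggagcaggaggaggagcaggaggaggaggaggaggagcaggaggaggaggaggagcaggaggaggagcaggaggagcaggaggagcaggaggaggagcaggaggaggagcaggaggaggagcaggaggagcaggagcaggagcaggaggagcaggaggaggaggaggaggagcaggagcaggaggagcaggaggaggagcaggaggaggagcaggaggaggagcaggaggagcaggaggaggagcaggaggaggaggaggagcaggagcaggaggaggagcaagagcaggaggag
Rpn2: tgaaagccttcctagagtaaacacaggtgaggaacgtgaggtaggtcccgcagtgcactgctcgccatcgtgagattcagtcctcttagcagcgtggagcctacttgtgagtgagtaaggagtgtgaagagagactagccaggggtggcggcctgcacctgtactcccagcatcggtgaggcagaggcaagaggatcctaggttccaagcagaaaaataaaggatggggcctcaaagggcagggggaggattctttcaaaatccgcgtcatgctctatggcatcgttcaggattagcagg
The Unc45b sequence repeats a C-rich unit without a match to the motif, and 78.5% of its 12-base words occur more than once within it. The Cdk18 sequence is built largely of GAG and CAG triplets, with 95.8% repeated words and no G4 motif. Ctcfl has 92.7% repeated words and 2 G4 motifs on the plus strand. Rpn2 has no repeated word and no motif.

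Intronic ISs of short genes were found in 1494 of the 14901 protein-coding genes under 50 kb on these 16 autosomes in the table with WT, or 10.03%, and in 2860, or 19.2%, in the deeper table. Most of these genes held a single IS, 1163 and 1547 respectively, and no gene held more than 5 or 8. The host genes had a median span of 27.4 kb and 25.3 kb. The ISs lay at a median of 45.9% and 45.7% of the way along the gene, and 32.3% and 33.4% of those with an assigned intron were in the first. In all, 1169 genes held such an IS in both tables. Fas, the gene of a death receptor, Il1r2, a decoy receptor for interleukin 1, and Hk2, which encodes a hexokinase of glycolysis, held 7, 8 and 7 ISs in the deeper table, where no other gene but Mrap2 and Wnt7a, also with 7, held more than 6.

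WT density at these ISs ran from 3.16 to 8.40 log2 RPM with a median of 4.52 (interval 4.48 to 4.56), and Rif1KO density from 3.31 to 8.33 with a median of 4.48. The median in ISs of genes of 50 kb or longer was 4.43 in WT, so that short genes were 0.097 log2 units denser, or 0.037 within classes of GC and 0.027 within classes of the number of genes nearby. In Rif1KO_shLacZ and Rif1KO_shMcm6 the medians were 2.78 and 2.73 log2 RPM, with 2.75 in ISs of long genes in Rif1KO_shLacZ, a difference of 0.030 whose interval (-0.0017 to 0.052) included 0. Levels of the 2 tables are on different scales, because each was scaled to its own ISs. Of the short-gene ISs, 57.6% stood in the per-condition lists of both WT and Rif1KO, 17.3% in that of WT only and 25.1% in that of Rif1KO only, beside 53.1%, 13.6% and 33.3% of all ISs on the 16 autosomes. In the table with hairpins 65.7% stood in both lists, 12.8% in the Rif1KO_shLacZ list only and 21.5% in the Rif1KO_shMcm6 list only, close to the 66.0%, 11.03% and 22.9% of all ISs.

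Loss of Rif1 left short-gene ISs close to their WT density. The median log2 fold change, Rif1KO over WT, was -0.042 (interval -0.055 to -0.029), and 57.9% of ISs were below 0. Only 8 ISs rose by 1.5-fold or more, 0.42% (interval 0.21% to 0.83%), beside 0.945% of all ISs on the 16 autosomes. Another 31 fell by as much, 1.63% (1.15% to 2.30%), beside 1.35% of all ISs. With chromosomes 10, 15 and 16 added, 1.36% of 2273 short-gene ISs rose and 3.21% fell. None of the 8 was in the WT list and no short-gene IS passed 2-fold in either direction. ISs in long genes had a median of 0.0092, which put short genes 0.051 lower. Within classes of GC and of the number of genes nearby, short minus long was 0.00058.

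**Figure D1:**
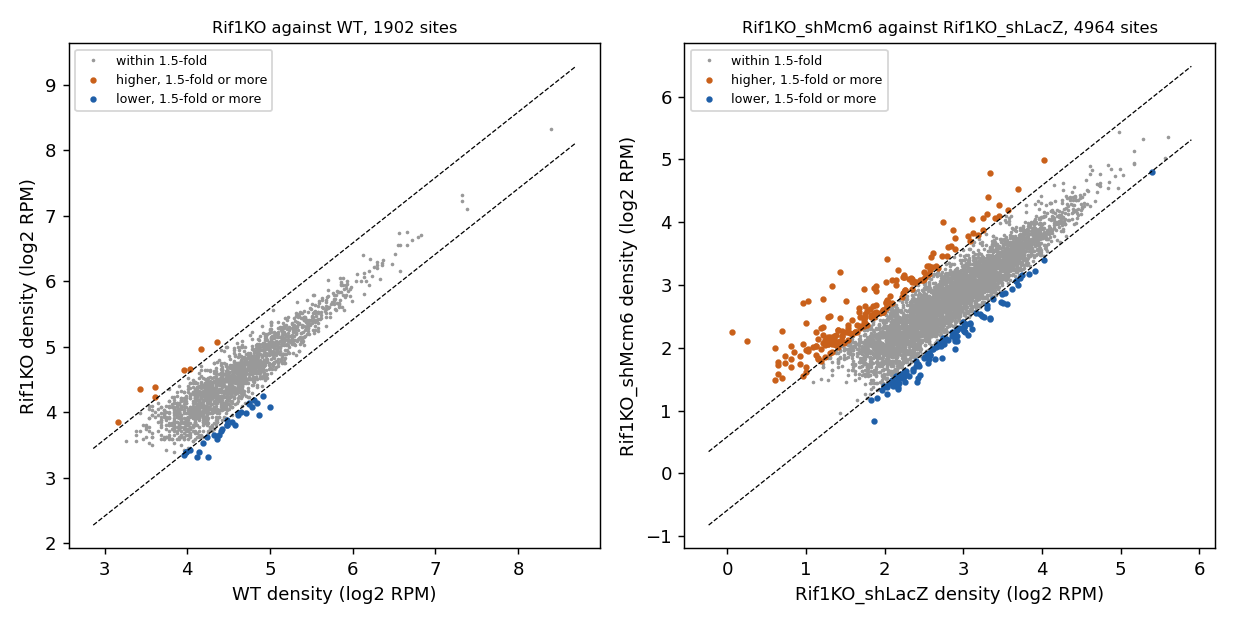
Density of each short-gene intronic IS in the control (x axis) and treated condition (y axis), both in log2 RPM, for Rif1KO against WT (left, 1902 ISs) and Rif1KO_shMcm6 against Rif1KO_shLacZ (right, 4964 ISs). Dashed lines mark 1.5-fold; 8 ISs are above and 31 below them on the left, and 194 above and 115 below on the right, where the gains lie mostly at low control density.

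Where the density averaged over both conditions reached the table median, the largest gain in Rif1KO was in intron 6 of Ppid, a cyclophilin gene (chr3:79403137-79403674). Its density was 4.16 log2 RPM in WT and 4.96 in Rif1KO, from 60 and 116 reads, a log2 fold change of 0.80 (counting SE 0.23). An IS in intron 10 of Gbp5, which encodes an interferon-induced guanylate-binding protein, went from 4.36 to 5.07 (0.70, SE 0.22). The next, in Rgs13, a regulator of G protein signalling of germinal centre B cells, in Tom1l1, an adaptor of endosomal sorting, and in Hk2, had log2 fold changes of 0.54, 0.54 and 0.53 and did not reach 1.5-fold. Of these 5 only the Hk2 IS was listed in both conditions, the others in Rif1KO only.

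Above the same limit on density, the 5 largest losses in Rif1KO were at ISs listed in WT only. In intron 13 of Ttbk1, a tau kinase gene (chr17:46591915-46592411), density was 4.997 log2 RPM in WT and 4.08 in Rif1KO, from 107 and 63 reads, and the log2 fold change was -0.92 (SE 0.23). In the first intron of Pvrl2, a nectin gene, it went from 4.87 to 3.96 (-0.91, SE 0.24). Kcng3, a modulatory potassium channel subunit, followed with -0.70, Ankmy1, an ankyrin repeat gene, with -0.69, and Pde4a, a cAMP phosphodiesterase, with -0.66. All 5 ISs had a GC content of 52.0% or more and at most 1.64% repeated words.

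Knockdown of Mcm6 in the absence of Rif1 moved short-gene ISs in both directions around a lower centre. The median log2 fold change, Rif1KO_shMcm6 over Rif1KO_shLacZ, was -0.069 (interval -0.078 to -0.058), and 59.4% were below 0. By 1.5-fold or more, 194 ISs rose, 3.91% (3.40% to 4.48%), beside 4.82% of all ISs on the 16 autosomes, and 115 fell, 2.32% (1.93% to 2.77%), beside 1.5% of all ISs. In long genes 4.35% rose and 1.40% fell around a median of -0.021, which put the short genes 0.048 lower. Within classes of GC and of the number of genes nearby, short minus long was 0.0012. The ISs that rose had a median control density of 1.74 log2 RPM, against 2.81 in those within 1.5-fold. Of the 194, 163 were listed in Rif1KO_shMcm6 only. Among the ISs listed in both conditions 0.828% rose and 1.35% fell.

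Under the same lower limit on density, the largest gain was that of Cdk18, whose sequence is shown above (chr1:134027154-134028375). Density went from 3.34 to 4.79 log2 RPM, on 213 and 651 reads, a log2 fold change of 1.45 (SE 0.11), and the IS was listed in both conditions. The zinc finger gene Zfp454 followed, from 2.03 to 3.41 in intron 5 (1.38, SE 0.18). Cyp2b19, a cytochrome P450 gene of skin, went from 2.74 to 4.001 (1.26, SE 0.14). Mylip, which encodes a ubiquitin ligase for the LDL receptor, went from 3.31 to 4.41 (1.10, SE 0.12), and Slco1a1, an organic anion transporter, from 2.17 to 3.23 (1.06, SE 0.18). In these 5 ISs between 10.6% and 82.8% of the 12-base words of the central 500 bp were repeated.

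Above that limit, the largest losses after Mcm6 knockdown were smaller in size than the gains. Pqlc1, a predicted transporter gene, had a log2 fold change of -0.88 (SE 0.16). Rpn2, the fourth sequence above (IS at chr2:157142189-157142903), went from 3.34 to 2.47 log2 RPM on 214 and 131 reads (-0.87, SE 0.16). The uncharacterised gene 6330512M04Rik had -0.85, Wdr41, a partner of C9orf72, -0.81, and Ddx6, an RNA helicase of processing bodies, -0.78. Only 6330512M04Rik of these 5 had repeated words in quantity, 23.7%. Below the limit, and alone among short-gene ISs, 1 IS lost more than 2-fold, in Tmem38b, an intracellular cation channel gene named here after its value was seen, with 1.87 log2 RPM in Rif1KO_shLacZ and 0.83 in Rif1KO_shMcm6.

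The 3 densest short-gene ISs of each table were in repeats and stayed within 1.5-fold, apart from Trim55. Unc45b had 8.40 log2 RPM in WT and 8.33 in Rif1KO, from 1132 and 1199 reads. Pkd2l1, a cation channel of sour-sensing cells, had 7.38 and 7.11, and Lck, a SRC family kinase of lymphocytes, 7.32 and 7.31. In these 3, 83.8%, 68.9% and 79.3% of words were repeated. In the table with hairpins, Ctcfl had 5.60 and 5.35, and Lck again stood out at 5.56 in Rif1KO_shLacZ and 5.03 in Rif1KO_shMcm6, a log2 fold change of -0.53 (SE 0.07) just under the threshold. Trim55, a muscle ring finger gene, had 5.40 and 4.79 (-0.60, SE 0.07) with 92.8% repeated words. On loss of Rif1 the log2 fold change at Lck was -0.01 (SE 0.09).

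The share of ISs that rose after Mcm6 knockdown was higher in repeated sequence, whereas on loss of Rif1 too few ISs rose to show an order. This measure and the next were defined after the sequences of the named ISs had been seen. With under 10% repeated words, 88 of 4212 short-gene ISs rose, 2.09% (1.70% to 2.57%). With 10% to 50% it was 84 of 654, or 12.8% (10.5% to 15.6%), and with 50% or more 22 of 98, or 22.4% (15.3% to 31.7%). The shares that fell were 2.26%, 1.99% and 7.14%, the last 7 ISs, so the most repeated class held the highest share in both directions, around a median of 0.070 (-0.151 to 0.291). In Rif1KO against WT the numbers that rose were 7 of 1601, 1 of 225 and 0 of 76, and the last has an upper limit of 4.81%. ISs with 10% or more repeated words made up 15.1% of the short-gene ISs but 54.6% of those that rose, 106 of 194, and 17.4% of those that fell. Without them the median log2 fold change of short-gene ISs was -0.085. The same held in long genes, with 2.37%, 14.4% and 26.2% of ISs rising in the 3 classes, so the order was not particular to short genes. The median control densities of the 3 classes of short-gene ISs were 2.79, 2.61 and 3.21 log2 RPM. Reads were kept only where they aligned to 1 place in mm9, and no input library corrects for copies of a repeat; the part of these and of control density in the result was not tested.

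Long purine or pyrimidine runs, stretches of only A and G or only C and T, showed the same order. After Mcm6 knockdown 2.10% of ISs rose where the longest run was under 20 bp, 3.47% with 20 to 39 bp, 8.20% with 40 to 79 bp and 15.5% (12.3% to 19.3%) with 80 bp or more, 64 of 414. ISs in long genes showed the order too, with 2.09%, 3.69%, 7.87% and 19.4%. The median log2 fold change of the last class was 0.154 (0.113 to 0.212), against -0.091 in the first. Runs and repeats overlap, since only 66 of the 414 had under 10% repeated words, and of these 5 rose, 7.58%. In Rif1KO against WT no IS with a run of 40 bp or more rose, of 143 and 85. The G4 motif did not separate the gains in this way, as 4.49% (3.76% to 5.36%) of ISs with a motif and 3.28% (2.63% to 4.07%) of those without rose after Mcm6 knockdown.

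**Figure D2:**
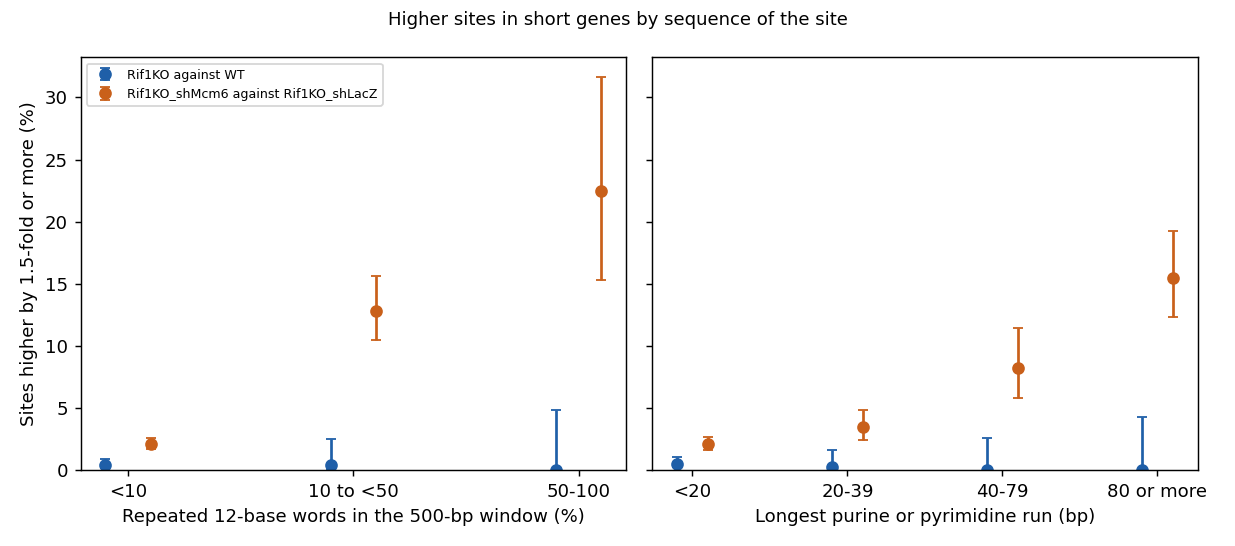
Percent of short-gene intronic ISs that rose by 1.5-fold or more (y axis) by the percent of repeated 12-base words (left) and by the longest purine or pyrimidine run (right) in the central 500 bp, with 95% Wilson intervals. For Rif1KO_shMcm6 against Rif1KO_shLacZ the percent goes from 2.09 to 22.4 on the left and from 2.10 to 15.5 on the right, and for Rif1KO against WT it stays under 1 in every class.

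Short-gene ISs held the G4 motif about as often as ISs in general, but were richer in GC. The motif lay in the central 500 bp of 75.2% of them in the table with WT (73.2% to 77.1%), against 11.3% of windows of the same length 3 kb to either side. The share over all ISs on these autosomes was 75.2% as well. In the deeper table the motif was in 52.1% of short-gene ISs, 11.996% of their flanks and 50.5% of all ISs. GC content, the base composition of the window, had a median of 49.4% (49.0% to 49.6%) and 47.8% (47.4% to 48.0%), against 47.0% and 44.2% over all ISs, and was above both their flanks (46.7% and 46.0%) and ISs in long genes (46.8% and 44.4%). Repeated words at 10% or more were in 15.8% and 15.1% of short-gene ISs, against 12.8% and 13.5% of all ISs. Short-gene ISs had a median of 16 and 15 protein-coding TSSs within 500 kb, against 8 and 7 for ISs in long genes. In this count only the start of each gene was used, so that it is a number of genes.

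The change on loss of Rif1 followed this neighbourhood. With 5 or fewer TSSs within 500 kb the median log2 fold change of short-gene ISs was 0.065 (0.0012 to 0.108, 112 ISs). It was 0.012 with 6 to 10, -0.039 with 11 to 20, -0.082 with 21 to 35 and -0.088 (-0.120 to -0.055, 225 ISs) with 36 or more. ISs in long genes ran through the same values, 0.081, -0.0016, -0.037, -0.059 and -0.106, and in each class the intervals of short and long genes overlapped. Taken within 5 classes of TSS number, the difference between short and long genes in Rif1KO over WT was -0.0075 instead of -0.051, and within classes of both GC and TSS number 0.00058. These classes of TSS number were added after the data were seen.

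After Mcm6 knockdown the order was weaker. Short-gene ISs had medians of -0.0100, -0.067, -0.071, -0.080 and -0.090 in the same 5 classes, and long-gene ISs 0.025, -0.039, -0.072, -0.095 and -0.053. In every class the intervals of short and long genes overlapped or met, the latter with 6 to 10 TSSs (-0.089 to -0.048 against -0.048 to -0.032). The difference between short and long genes within classes of TSS number was -0.0014, and within classes of GC and TSS number 0.0012. Across short-gene ISs Spearman's rho of the log2 fold change with TSS number was -0.187 and -0.050 in the 2 contrasts, and with GC -0.239 and -0.120, over ISs that share libraries and neighbourhoods.

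**Figure D3:**
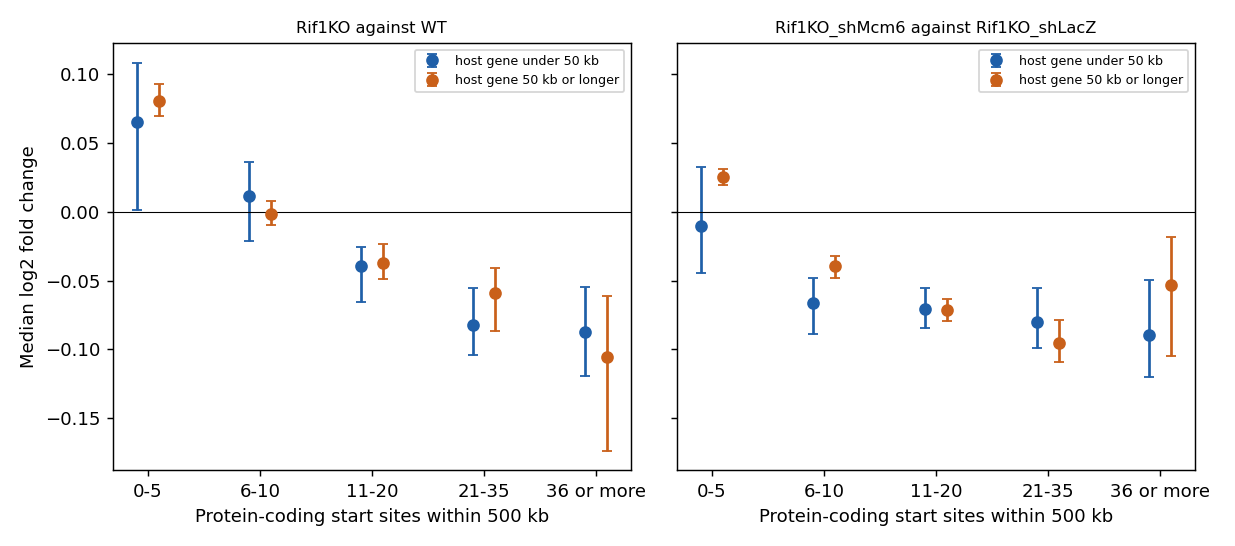
Median log2 fold change of intronic ISs (y axis) by the number of protein-coding TSSs within 500 kb (x axis), for host genes under 50 kb and of 50 kb or longer, with 95% order-statistic intervals. In Rif1KO against WT (left) both kinds go from above 0 in gene-poor places (0.065 and 0.081) to below 0 in gene-rich ones (-0.088 and -0.106).

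Below 50 kb, host gene span showed no order beyond the intervals of its classes. Rif1KO over WT had medians of -0.045, -0.050, -0.051 and -0.030 for ISs in genes under 10 kb, of 10 to 20, 20 to 35 and 35 to 50 kb, with overlapping intervals. Above 50 kb it went from -0.018 at 50 to 100 kb to 0.066 at 500 kb or more. Rif1KO_shMcm6 over Rif1KO_shLacZ had -0.042, -0.053, -0.072 and -0.077 below 50 kb and 0.036 at 500 kb or more. On either side of the limit the medians were -0.038 in genes of 45 to 50 kb and 0.0024 in genes of 50 to 55 kb for Rif1KO over WT, and -0.101 and -0.035 for the knockdown. The intervals on either side overlapped in both contrasts. The short-gene median was below the long-gene median in 14 of 16 autosomes on loss of Rif1 and in 16 of 16 after Mcm6 knockdown. Position made little difference, since ISs in the first intron had medians of -0.051 and -0.077 and those in the third or a later intron -0.034 and -0.065, with overlapping intervals.

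**Figure D4:**
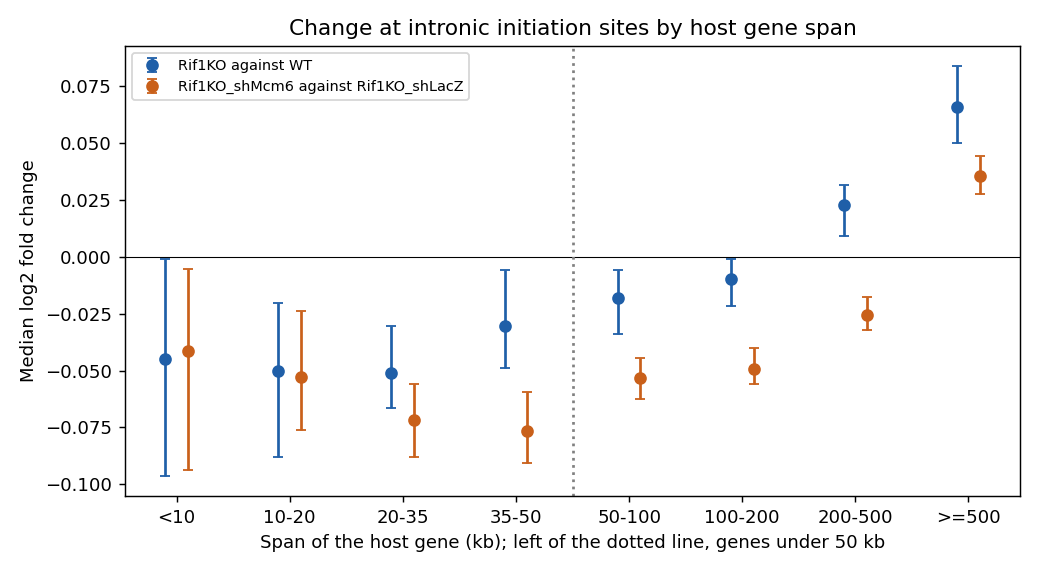
Median log2 fold change of intronic ISs (y axis) by span of the host gene in kb (x axis), with 95% order-statistic intervals, for both contrasts. The 4 classes left of the dotted line hold the short genes, with medians between -0.077 and -0.030, and at 500 kb or more the medians are 0.066 and 0.036.

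The spread of fold changes within a short gene was set beside that over all ISs of the same genes. Over the 331 genes with 2 or more ISs in the table with WT, the SD of the log2 fold change within genes was 0.219, against 0.229 over all their ISs, and over the 1313 such genes of the deeper table it was 0.314 against 0.320. The median counting SE of 1 IS over all short-gene ISs was 0.229 and 0.167, so in the table with WT the spread within genes was no larger than counting error and cannot show whether ISs of one gene differ. Il1r2 had 8 ISs between -0.24 and 0.41 after Mcm6 knockdown, none past 1.5-fold. Its densest, in intron 5, had 4.19 log2 RPM in Rif1KO_shLacZ and 4.10 in Rif1KO_shMcm6. In Fas 6 of 7 ISs were below 0, from -0.40 to -0.14, and 1 in intron 8 stood at 0.45 (SE 0.18). In Hk2 the ISs ran from -0.36 to 0.51 after the knockdown, and from -0.35 to 0.53 on loss of Rif1. Shank1, a synaptic scaffold gene, and Fkbp9, a prolyl isomerase gene, held 4 ISs each in the table with WT, at -0.17 to 0.12 and -0.51 to -0.03.

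**Figure D5:**
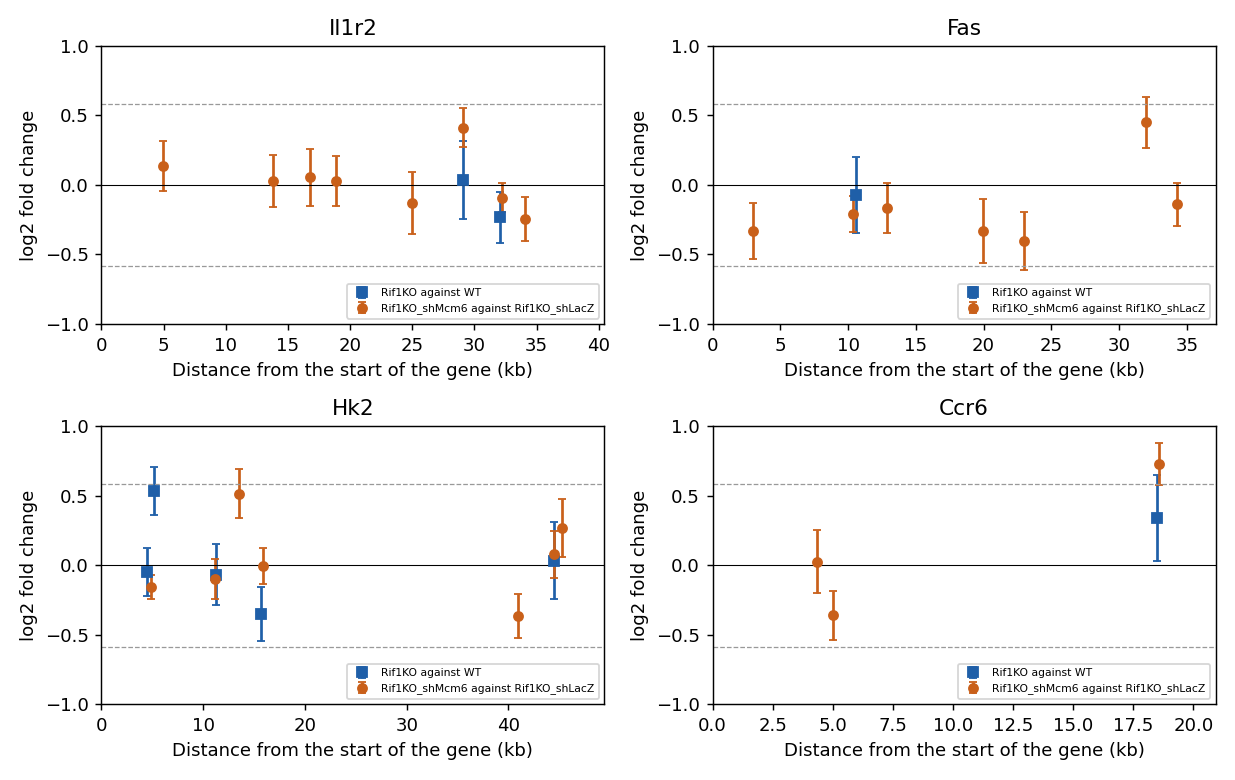
Log2 fold change (y axis) of each intronic IS of Il1r2, Fas, Hk2 and Ccr6 by its distance in kb from the start of the gene (x axis, which spans the gene), with bars of 1 counting SE and dashed lines at 1.5-fold. Neighbouring ISs of a gene lie on both sides of 0, and 1 IS, in Ccr6 after Mcm6 knockdown (0.73), is past the threshold.

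The tables shared 1334 short-gene ISs that overlapped 1 to 1, 70.1% of those in the table with WT and 26.9% of those in the deeper table. Their medians were -0.036 on loss of Rif1 and -0.140 after Mcm6 knockdown, beside 0.0095 and -0.090 for all shared ISs on the 16 autosomes. Of the 1334, 690 were listed in all 4 conditions. No IS rose in both contrasts, and 2 fell in both, beside 4 and 13 of all 25514 shared ISs on the 16 autosomes. In the first intron of Yif1b, which encodes a protein of Golgi transport, density was 4.36 log2 RPM in WT and 3.59 in Rif1KO (-0.77, SE 0.28), and 2.40 in Rif1KO_shLacZ and 1.80 in Rif1KO_shMcm6 (-0.60, SE 0.21). In intron 4 of Fa2h, a fatty acid hydroxylase gene, the values were 3.98 and 3.39 (-0.60, SE 0.30), and 2.23 and 1.53 (-0.71, SE 0.23). After Mcm6 knockdown 14 of the 1334 rose, 1.05%, beside 0.890% of all shared ISs, and 180 of the 3630 others in the deeper table, 4.96%. The 3630 had a median control density of 2.56 log2 RPM, against 3.41 in the shared ones.

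Host genes were grouped by function, and each list is to be read against all short-gene ISs, whose medians were -0.042 and -0.069. Of these 0.42% rose and 1.63% fell on loss of Rif1, and 3.91% rose and 2.32% fell after Mcm6 knockdown. Among genes of replication and repair, Rif1 itself is a short gene and held an IS listed in both WT and Rif1KO, at 4.32 and 4.46 log2 RPM (0.14, SE 0.24); an IS in an intron does not test the deletion. After Mcm6 knockdown its 2 ISs had 0.22 (SE 0.10) and -0.01 (SE 0.16). Of 52 short genes of DNA replication 5 held ISs in the table with WT, 6 in all, with a median log2 fold change of 0.0049, and 8 held 16 ISs in the deeper table, with a median of -0.10. None of the 16 rose. Mcmbp, which binds MCM subunits, had the most, 5 ISs, and those in introns 1 and 5 had 0.42 (SE 0.21) and 0.41 (SE 0.14). Of 38 short genes of DNA repair and class switching 3 and 8 held ISs, with medians of -0.198 over 3 and 0.049 over 11, and 1 IS rose after the knockdown, in the checkpoint kinase gene Chek1 (0.68, SE 0.19). Chek1, like the other genes named below for passing 1.5-fold in a list, was picked after its value was seen.

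B cell genes were represented by 9 of 47 short genes in the table with WT, with 11 ISs of median 0.054, and 17 in the deeper table, with 32 ISs of median -0.085. None passed 1.5-fold on loss of Rif1. After Mcm6 knockdown 1 rose, in intron 4 of Ccr6, a chemokine receptor of B cells, from 2.73 to 3.46 log2 RPM (0.73, SE 0.15). That IS has a purine run of 129 bp, and its value on loss of Rif1 was 0.34 (SE 0.31). Another Ccr6 IS stood at -0.36 (SE 0.18). An IS of the Fc receptor-like gene Fcrl5 fell (-0.60, SE 0.24). Genes of immune ligands and receptors held 13 ISs with a median of -0.036 and 41 with a median of -0.062. Of the latter 2 rose, beside 4.82% of all ISs, the same Ccr6 IS and 1 in Il20rb, a subunit of interleukin 20 receptors, from 0.96 to 2.71 log2 RPM on 41 and 154 reads (1.75, SE 0.25), which has a purine run of 149 bp.

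Lists of translation, splicing, energy and protein turnover genes had medians on both sides of those of all short-gene ISs, -0.042 and -0.069. Translation genes held 8 ISs with a median of -0.087 on loss of Rif1 and 14 with a median of -0.149 after Mcm6 knockdown, of which 1 rose, in Eif2s1, an initiation factor (0.66, SE 0.17). Rars, an arginyl-tRNA synthetase gene, had -0.43 and -0.13 at its ISs of largest change. RNA helicase and splicing genes held 16 and 28 ISs, with medians of -0.066 and -0.107. Of the 28, 1 rose (Dhx38, 0.80) and 2 fell (Dhx34, -0.83, and Ddx6), and Rbm28 had -0.47 and 0.20. The longest purine or pyrimidine run was 112 bp at the Dhx34 IS, which fell, and 14 bp at the Eif2s1 IS, which rose. It was 136 bp at the Dhx38 IS, which rose, and 14 bp at the Ddx6 IS, which fell. Genes of glycolysis and mitochondrial energy held 12 and 20 ISs, with medians of -0.127 and -0.0053, and 1 fell, in Cox15, which makes haem A (-0.75, SE 0.24). Proteasome and ubiquitin ligase genes held 12 and 45, with medians of -0.027 and -0.072. Here the proteasome gene Psma5 (0.62) and the F-box gene Fbxo8 (0.66) each had an IS that rose, and Fbxl19 (-0.81) 1 that fell. In these 4 lists no IS passed 1.5-fold on loss of Rif1.

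Solute carrier and ion channel genes also hosted ISs. Solute carriers held 53 ISs in the table with WT, with a median of -0.030 and 1 that fell, in Slc26a11 (-0.61, SE 0.28). They held 149 in the deeper table, with a median of -0.087, 6 that rose and 4 that fell, close to the 3.91% and 2.32% of all short-gene ISs. The amino acid transporter gene Slc38a11 had both 0.87 (SE 0.25), at an IS with a purine run of 141 bp, and -0.52 (SE 0.22), at one with a run of 12 bp. Ion channel and transmitter receptor genes held 33 and 77 ISs, with medians of -0.099 and -0.063. On loss of Rif1 2 fell, in Kcng3 and in the nicotinic receptor gene Chrna9 (-0.66). After the knockdown Cacng5 (0.70) rose, and Kcng3 (-0.60), Htr5b (-0.59) and Kcnj1 (-0.80) fell. The only intron of Kcng3 held 4 ISs in the table with WT, all below 0, from -0.70 to -0.16. It held 6 in the deeper table, from -0.60 to 0.16, and the IS at -0.70 on loss of Rif1 had -0.58 after the knockdown.

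The list of liver and plasma protein genes also took in cytochrome P450 genes of other tissues, such as Cyp2b19. It held 8 ISs in the table with WT and 87 in the deeper one, with medians of -0.126 and 0.0042. Of the 87, 8 rose after Mcm6 knockdown, beside 3.91% of short-gene ISs and 4.82% of all ISs, and 1 fell, in Cyp2c55 (-0.72, SE 0.24). Those that rose were in Cyp2b19, Cyp4f40 (1.24), Cyp4f16 (1.21), Apob (0.94), Cyp2b23 (0.89), Cyp2c69 (0.82), Cyp2c40 (0.76) and Cyp2c65 (0.69). None of these 8 was listed in Rif1KO_shLacZ, 4 had 10% or more repeated words, and all but Cyp2b19 and Cyp2b23 had at most 60 reads there. Several of these genes are near copies of each other, so reads that fit more than 1 copy were dropped. Muscle and keratin genes held 7 ISs with a median of 0.085 and 23 with a median of -0.131. On loss of Rif1 1 fell, in Mybpc2, a myosin-binding protein (-0.62). After the knockdown Tnni1 (0.65) and Tpm2 (0.62) rose and Krt28 (-0.69) fell, of 23 ISs, beside 4.82% and 1.5% of all ISs, and Lmod1, the list's gene with the most ISs, had -0.35 and -0.27.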

How the data were processed

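Size-selected short nascent strands, treated with lambda exonuclease, were sequenced in 8 libraries. Per the labels and the study's methods, the authors trimmed reads with Trim Galore 0.6.4 and cutadapt 2.6, aligned them to mm9 with Bowtie 1.2.3 keeping unique alignments, used MACS on each replicate, with no input library, to call peaks, intersected replicates, dropped isolated peaks with ClusterScan and merged the peaks of a contrast. The deposited log2 RPM values are scaled to reads within the ISs of a table (they sum to 1000000 per condition), and pool 2 replicates. The deposited column of the authors' fold-change category was not used, and of the deposited per-condition lists, which also hold the number of peaks merged into each IS, only the positions and this number were used. Unique alignment drops reads in near-identical repeats, and the cluster step removes isolated ISs.

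Reads were recovered as multiples of the value of 1 read, whole within 0.01 for 100% of values. ISs were joined to GENCODE M1 genes (22380 protein-coding genes, mm9) with Python 3.11.15, pandas 2.3.3 and scipy 1.17.1. The log2 fold change is treated minus control, with no filter or pseudocount, and its counting SE is that of a ratio of 2 Poisson counts, which takes reads as independent although PCR copies are not. A change means 1.5-fold or more. Sequence was read from the mm9 genome. The scripts were tested on simulated data. The members and gene lists were chosen with earlier results of these data known. Family prefixes of the lists were narrowed afterwards, so that genes such as Mylip no longer counted as muscle genes. ISs were named by rule: the 5 highest and 5 lowest fold changes at or above the median density, the 3 densest ISs, the 3 genes with most ISs, ISs past 1.5-fold in both contrasts, and in each list the gene with most ISs. Alternatives covered exons, span and distance limits, density filter, pseudocount, lists, chromosomes, centring, threshold, GC, TSS number and repeats. Single ISs of some listed genes are not reported here.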

Additional observations from a re-analysis of the deposited data

How the results depend on the processing

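Of 118 values computed for 10 results, 80 kept their direction and lay within the interval of the value from the main processing. Another 33 moved outside that interval, and 5 reversed. The median log2 fold change on loss of Rif1 stayed between -0.051 and -0.031. After Mcm6 knockdown it was -0.084 without the lower quartile of density, -0.097 over ISs listed in both conditions, -0.058 after centring on all ISs and -0.085 without repeated sequence.

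The difference in fold change from long genes depended on the neighbourhood. For loss of Rif1 and for Mcm6 knockdown it was -0.030 and -0.033 within GC classes, -0.0075 and -0.0014 within TSS classes, and reversed to 0.00058 and 0.0012 within both. Against genes of 200 kb or more it was -0.078 and -0.070, and for loss of Rif1 it was -0.032 over ISs listed in both conditions. The density difference moved to 0.037 (GC) and 0.027 (TSS number) in WT. In Rif1KO_shLacZ, where its interval included 0, it reversed to -0.0086 (GC), -0.039 (TSS number) and -0.020 (genes under 30 kb), and was 0.061 against genes of 200 kb or more. The TSS and repeat alternatives were chosen after seeing the data, and the cause was not tested.

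Shares past the threshold also moved. For loss of Rif1, the shares that rose and fell were 0% and 0.365% over ISs listed in both conditions, 1.36% and 3.21% with chromosomes 10, 15 and 16 added, 0% and 0% at 2-fold, and 4.84% and 11.1% at a looser threshold. For Mcm6 knockdown they were 2.23% and 1.66% without the lower density quartile, 2.38% and 0.806% with 1 added to the RPM, 0.828% and 1.35% over ISs listed in both, 0.725% and 0.020% at 2-fold, and 11.4% and 16.2% at the looser threshold, and 2.09% rose without repeated sequence.

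No paired analysis was possible because each table holds 1 pooled value per condition, so leaving out a replicate, a replicate block and another read normalization were not run. Median reads per short-gene IS were 77 in WT and 145 in Rif1KO_shLacZ, which gives a median counting SE of the log2 fold change of 0.23 and 0.17, so fold changes near 1.5-fold at single ISs are uncertain.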
